A study of Mus musculus with 58 samples.

Results

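The Kruppel-like factor (KLF) genes were followed through RNA sequencing of mouse oocytes, morulae and extraembryonic ectoderm. The 9 genes Klf2, Klf3, Klf4, Klf5, Klf6, Klf9, Klf10, Klf13 and Klf17 were taken by symbol from a count table of 24077 genes, and all 9 were found. The libraries come from a study of histone H2A ubiquitination and its part in the inheritance of histone H3 methylation from oocyte to embryo. Fully grown oocytes (FGO) of strain B6.129 gave 2 control (CTR) libraries, labelled wild type, and 2 libraries labelled Pcgf1/6 double knockout (KO). Embryos of the cross B6.129 x PWK gave 2 CTR and 2 matKO libraries of morulae, and 2 CTR and 4 matKO libraries of extraembryonic ectoderm (ExE), the trophoblast tissue that adjoins the epiblast. The matKO label stands for a double maternal knockout, in which the loss comes through the mother. The Cre driver, the alleles, the ages and the number of animals or embryos pooled per library are not stated in the labels. P-values therefore measure the spread between libraries, which may be technical. Pcgf1 RNA stood at 1406 and 1100 CPM (counts relative to a fixed library total) in the CTR oocyte libraries and at 34.9 and 22.8 CPM in the KO libraries, and Pcgf6 stood at 395.8 and 428.7 against 176.9 and 219.7 CPM.

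KLF proteins are zinc finger transcription factors that bind GC-rich and CACCC-type DNA sequences. Klf2, Klf4 and Klf5 help to hold mouse embryonic stem cells in the naive pluripotent state, and Klf5 is needed for the trophectoderm and inner cell mass of the early embryo. Klf3 represses transcription through the CtBP corepressors, and Klf9, Klf10 and Klf13 can recruit the Sin3A corepressor. Klf6 is an early response gene with a known part in placenta and yolk sac, and Klf17 is best known as a gene of oocytes and of the first cleavages. PCGF1 and PCGF6 each define a variant of Polycomb repressive complex 1, which places ubiquitin on histone H2A, and the PCGF1 form is brought to unmethylated CpG islands by KDM2B.

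The RefSeq promoter table of build GRCm38.p6 held 7 of the 9 genes, all but Klf5 and Klf10. The 250 bases upstream of the start are printed for Klf3, Klf4 and Klf9, which were higher in KO oocytes, and for Klf17, which was already high in CTR oocytes, so that the difference in CpG content can be seen. Capitals mark each CpG. The windows are chr5:64803271-64803520 on the plus strand for Klf3, chr4:55532476-55532725 on the minus strand for Klf4, chr19:23140976-23141225 on the plus strand for Klf9 and chr4:117765667-117765916 on the minus strand for Klf17, each written 5′ to 3′ along the gene.
Klf3: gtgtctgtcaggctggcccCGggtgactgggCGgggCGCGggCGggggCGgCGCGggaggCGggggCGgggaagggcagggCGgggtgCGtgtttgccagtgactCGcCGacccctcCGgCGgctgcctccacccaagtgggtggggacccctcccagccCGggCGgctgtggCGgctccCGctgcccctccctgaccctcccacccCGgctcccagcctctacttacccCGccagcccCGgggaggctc
Klf4: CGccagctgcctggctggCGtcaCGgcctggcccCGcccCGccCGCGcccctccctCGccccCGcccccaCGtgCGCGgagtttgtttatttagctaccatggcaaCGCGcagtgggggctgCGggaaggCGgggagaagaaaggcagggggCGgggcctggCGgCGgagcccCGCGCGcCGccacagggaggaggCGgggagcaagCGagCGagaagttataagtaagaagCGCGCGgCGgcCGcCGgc
Klf9: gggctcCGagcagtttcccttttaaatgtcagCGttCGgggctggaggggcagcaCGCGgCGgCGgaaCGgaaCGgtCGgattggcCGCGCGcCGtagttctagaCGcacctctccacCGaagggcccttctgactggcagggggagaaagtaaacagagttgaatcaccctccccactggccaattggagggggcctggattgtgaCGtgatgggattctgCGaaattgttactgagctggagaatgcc
Klf17: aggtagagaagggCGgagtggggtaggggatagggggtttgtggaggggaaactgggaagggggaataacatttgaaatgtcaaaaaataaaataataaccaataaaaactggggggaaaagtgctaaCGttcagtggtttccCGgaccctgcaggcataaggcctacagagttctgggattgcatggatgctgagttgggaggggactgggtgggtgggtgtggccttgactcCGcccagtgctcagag
The Klf4 window held 32 CpG, the Klf3 window 23, the Klf9 window 18 and the Klf17 window 4. Over 32841 promoters of the same length the median was 6. The other 3 windows were also rich in CpG, with 29 for Klf2, 24 for Klf13 and 21 for Klf6, and these 3 genes did not pass the test in oocytes. The E-box CACGTG, searched on both strands, stood in the Klf4 and Klf6 windows and in 6.02% of all promoters. The GC box CCGCCC, searched on both strands, was present in 6 of the 7 windows, all but that of Klf9, and in 32.7% of all promoters. No chromatin data were analysed here, so these letters are a description of the windows.

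The first question was how the set of KLF transcripts changed between CTR oocytes, morulae and ExE. Oocyte values are whole-gene counts, whereas morula and ExE values are sums of the maternal and paternal counts, which leave out reads that could not be assigned to a parent. Levels in oocytes and embryos are thus not on the same footing, and a gene with few strain variants reads low in embryos. Klf17 was the tested member that fell from oocyte to morula. Its level was 363.9 and 407.2 CPM in the CTR oocyte libraries, 4.75 and 16.4 CPM in the CTR morula libraries, and 0 and 0.229 CPM in the CTR ExE libraries. Klf5 took the opposite course. It had 0 and 1 counts in the CTR oocyte libraries, against 299.0 and 321.3 CPM in CTR morulae. In CTR ExE it stood at 13.3 and 5.96 CPM, above the oocyte and far below the morula.

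Between CTR oocytes and CTR morulae, 6 of the 8 tested members were higher in morulae and 1 was lower, where 36% of all 13044 tested genes were higher and 48.2% lower. Klf5 was higher by 11.93 ± 0.52 on the log2 scale (log2 fold change ± SE here and below, adjusted p = 9.15e-09), with a ratio of pooled CPM of 16135 (95% counting interval 2889 to 637929) that rests on 1 read in oocytes. Klf9, a Sin3A-recruiting repressor, rose by 6.61 ± 0.49 from 0.417 and 0.156 CPM to 81.3 and 78.1 CPM. Klf3 rose by 4.87 ± 0.59 from 0.190 and 1.05 CPM to 61.1 and 39.7 CPM. No library of either gene overlapped between these stages, an order that was not counted over all genes here and supports nothing by itself. Klf6 rose by 4.53 ± 0.26, Klf4 by 2.36 ± 0.37 and Klf10 by 1.75 ± 0.28, with adjusted p from 5.29e-08 to 1.41e-04. Klf17 fell by 6.66 on the log2 scale (SE 0.34, adjusted p = 3.57e-08). Klf13 gave 0.34 ± 0.21 (adjusted p = 0.150). Klf2, with 4 reads in all in CTR morulae, did not pass the filter on low counts. Of all called genes, 42.8% were higher in morulae with the TMM scaling used here and 61.6% with library totals alone, which moved the median of all genes from -0.53 to 0.90; Klf13 was then called higher and the other 7 kept their call and direction.

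From CTR morulae to CTR ExE, 6 of the 8 tested members fell and 1 rose, where 34.4% of all tested genes were lower and 22.7% higher. The log2 fold change was -4.34 ± 0.32 for Klf5 (adjusted p = 1.14e-06), -4.13 ± 0.47 for Klf4, -2.69 ± 0.40 for Klf9, -2.303 ± 0.24 for Klf13 and -5.61 ± 0.98 for Klf17. Klf3 fell by 1.87 (SE 0.52, adjusted p = 0.0108), and without morula CTR replicate 1 or without ExE CTR replicate 2 it did not pass the test (adjusted p = 0.0935 and 0.0893). Klf6 was the member that rose, by 1.27 ± 0.21 (adjusted p = 5.04e-04), from 223.7 and 137.3 CPM in morulae to 258.3 and 283.6 CPM in ExE. Klf10 stood at 48.1 and 47.9 CPM in morulae and at 32.5 and 43.1 CPM in ExE, and its log2 fold change was 0.34 ± 0.27 with TMM scaling (adjusted p = 0.311) and -0.35 with library totals alone. That change of scaling took the share of called genes that were higher from 39.7% to 21.2% and the median of all genes from -0.12 to -0.80. No read of Klf2 was found in the 6 ExE libraries, where 3 counts would correspond to 0.688 to 0.883 CPM.

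**Figure D1:**
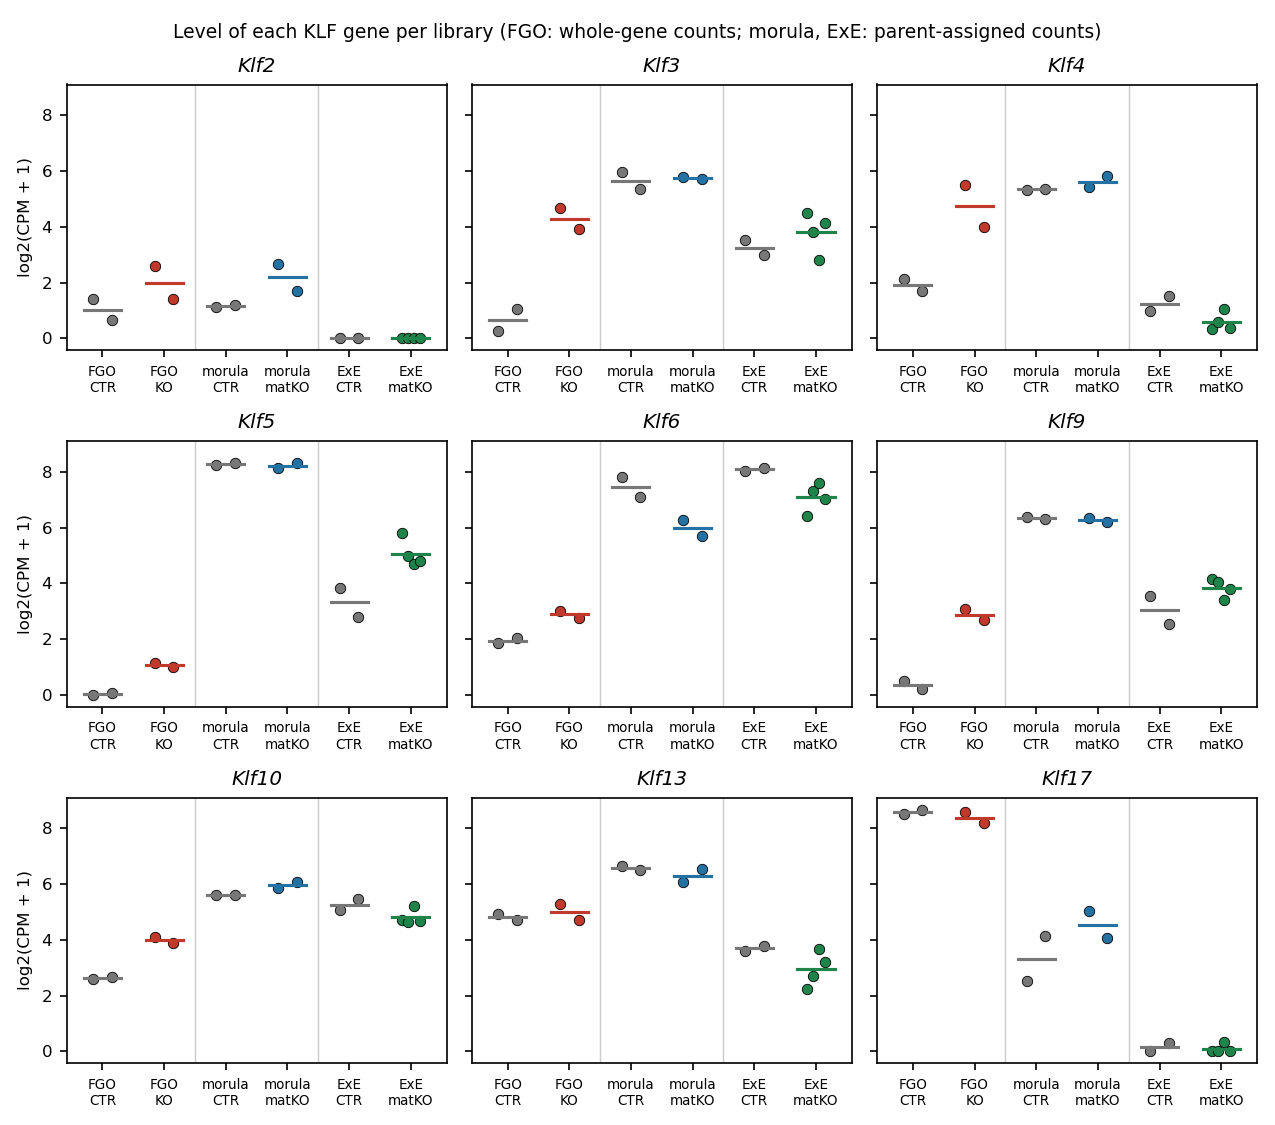
Each panel shows 1 KLF gene, with the level per library as log2(CPM + 1) on the vertical axis, the 6 groups on the horizontal axis, a point per library and a bar at the mean of the points. Klf17 is high in the 4 oocyte libraries and near 0 in ExE, Klf5 peaks in the 4 morula libraries, and Klf3, Klf4 and Klf9 are raised in the 2 KO oocyte libraries over the 2 CTR libraries.

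In KO oocytes, several KLF genes that were low or nearly silent in CTR oocytes were higher. Of the 9 members, 5 passed the test and all 5 were higher, namely Klf3, Klf4, Klf5, Klf9 and Klf10. Over all 13459 tested genes 5.35% were called higher and 1.87% lower. The median log2 fold change was 1.45 over the members and 0.0039 over all tested genes. Klf3, Klf5 and Klf9 reached the low-count cutoff of 0.419 CPM in enough libraries only through the KO group, so these 3 could enter the test only by being higher there, and the count and the median support nothing by themselves.

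Klf3 stood at 0.190 and 1.05 CPM in CTR and at 24.7 and 13.99 CPM in KO oocytes, a log2 fold change of 4.84 ± 0.62 (adjusted p = 0.00811). Klf9 stood at 0.417 and 0.156 CPM in CTR and at 7.36 and 5.403 CPM in KO, a log2 fold change of 4.34 ± 0.47 (adjusted p = 0.00159). For both genes each KO library lay far above each CTR library, an order found for 32.1% of all tested genes, and KO replicate 1 was the higher of the pair. Klf5, the pluripotency and trophectoderm factor, had 0 and 1 counts in CTR and 26 and 20 counts in KO. The ratio of pooled CPM was 57.3 (95% counting interval 9.78 to 2312), with an adjusted p of 0.0107 and a fitted log2 fold change of 5.395 ± 0.92 that depends on the prior count. The KO level of 1.18 and 1.01 CPM was small beside the 299.0 and 321.3 CPM of CTR morulae, which are on the parent-assigned scale.

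Klf4 stood at 3.38 and 2.255 CPM in CTR and at 44.7 and 14.7 CPM in KO, a log2 fold change of 3.25 ± 0.52 (adjusted p = 0.0193). The KO libraries did not overlap with CTR but differed widely from each other. Klf10, a gene induced by TGF-beta, stood at 5.01 and 5.37 CPM in CTR and at 16.0 and 13.7 CPM in KO, a log2 fold change of 1.42 ± 0.23 (adjusted p = 0.00864). Klf6 went the same way within a narrow spread, from 2.62 and 3.07 CPM to 7.04 and 5.76 CPM, and did not pass the test at 1.06 ± 0.29 (adjusted p = 0.0639). Klf2 gave 1.63 and 0.583 CPM in CTR and 5.00 and 1.67 CPM in KO (1.45 ± 0.61, adjusted p = 0.225). Its groups barely separated, with 1.63 CPM the highest CTR value and 1.67 CPM the lowest KO value.

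The members already well expressed in CTR oocytes gave small differences. Klf13 stood at 29.4 and 25.3 CPM in CTR and at 37.7 and 25.5 CPM in KO (0.10 ± 0.20, adjusted p = 0.836). Klf17 stood at 363.9 and 407.2 CPM in CTR and at 387.2 and 288.4 CPM in KO (-0.30 ± 0.15, adjusted p = 0.308). For Klf17, KO replicate 1 lay between the CTR libraries. Klf4 lost its call without CTR replicate 2 (adjusted p = 0.0987), and Klf3 and Klf5 lost theirs without KO replicate 1 (adjusted p = 0.0727 and 0.0513).

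KO replicate 1 was also the higher library for other transcripts of quick response. The summed level of 16 immediate early genes, the transcripts that cells induce within minutes of stress or growth signals, was 81.0 and 75.7 CPM in CTR and 201.3 and 116.8 CPM in KO. Of 11 tested, 4 were called higher by edgeR and 6 by DESeq2, beside 5.35% of all tested genes for edgeR, and the median log2 fold change was 1.36. Junb, Ier2 and Ier3 reached the low-count cutoff in enough libraries only through the KO group, and 1 of the 4 edgeR calls was Ier2, so this count and median support nothing by themselves. The other 3 were Btg2, an antiproliferative gene (1.36 ± 0.22), Jund, an AP-1 subunit (2.08 ± 0.36), and Zfp36, an RNA-decay factor (1.74 ± 0.41). Zfp36 lost its call without CTR replicate 2 or without KO replicate 1 (adjusted p = 0.126 and 0.151), and Btg2 with a spread shared over all libraries (adjusted p = 0.285). Klf4, Klf6 and Klf10 are themselves early response genes in many cells, and the part of such a response in the KLF values was not tested. Summed granulosa and cumulus markers, for the somatic cells around the oocyte, were 52.1 and 61.2 CPM in CTR and 47.3 and 45.8 CPM in KO. Among these 8 markers Amh and Foxl2 stood at or near 0, at no more than 0.136 CPM in any oocyte library, and most counts of the sum came from Cyp19a1, with 2664 in CTR and 1608 in KO. Nr2f2, the 1 marker of this list that was called, had the opposite sign, with 1.10 and 0.661 CPM in CTR libraries and 4.23 and 2.42 CPM in KO libraries (1.79 ± 0.44, adjusted p = 0.0444). The part of such cells in the KLF values was not tested. Summed oocyte markers were 19046.8 and 18639.6 CPM in CTR and 13292.7 and 18230.5 CPM in KO. In such bulk libraries fewer cells of a type and less RNA per cell cannot be told apart.

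**Figure D2:**
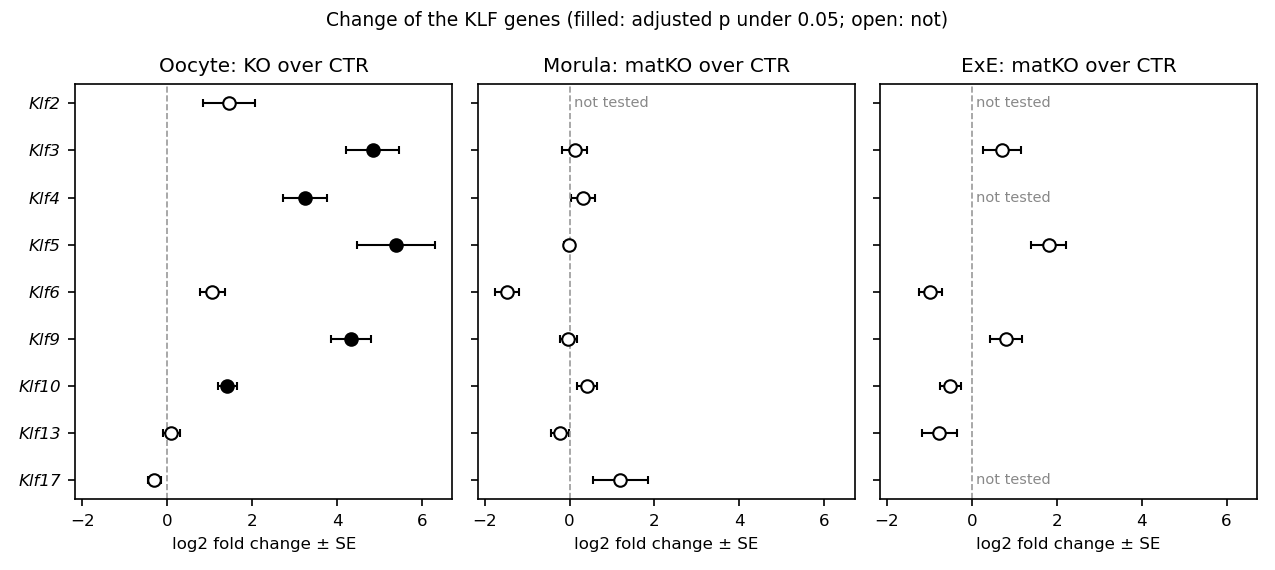
Log2 fold change ± SE of each KLF gene on the horizontal axis, knockout over control, in oocytes, morulae and ExE; filled points passed an adjusted p of 0.05 and open points did not. In oocytes 5 of 9 points are filled and lie from 1.42 to 5.395, and no point is filled in morulae or ExE.

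Among the 8 other KLF genes in the table, 6 could be tested in oocytes and 1 was called, higher. It was Klf12, a CtBP-binding repressor, with 1 count in CTR and 137 in KO (ratio of pooled CPM 170.6, 95% counting interval 30.1 to 6788, adjusted p = 0.00154). Klf1, the erythroid factor, stood at 0.910 and 0.467 CPM in CTR and at 2.86 and 1.41 CPM in KO (1.51 ± 0.52, adjusted p = 0.130). Klf11 gave 0.43 ± 0.19 (adjusted p = 0.245). Of the related SP genes, 5 of 9 could be tested and Sp5, a Wnt-responsive gene, was the one called, with 2 counts in CTR and 82 in KO (ratio 51.1, 13.7 to 428.8, adjusted p = 0.00826). Sp2 and Sp3 gave 0.07 ± 0.32 and -0.24 ± 0.28. Klf12 and Sp5 passed the low-count filter through KO alone and had no read in the morula and ExE libraries.

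Genes that work with KLF proteins were read in oocytes against the 7.22% of all tested genes that were called in either direction and the 21.5% with an unadjusted p under 0.05. None of 10 cofactors and regulators was called by edgeR. DESeq2 called 1 of them, Wwp1, a ubiquitin ligase for Klf2 and Klf5, which was also the only 1 with an unadjusted p under 0.05 (-0.59 ± 0.17, adjusted p = 0.0704). Without KO replicate 2, Wwp1 and Ctbp2 were called lower (adjusted p = 0.0236 and 0.0271). Ctbp2 gave -0.30 ± 0.16 and Fbxw7, the ligase subunit that targets Klf5, 0.34 ± 0.20. None of the 6 tested genes of the LIF-STAT3 pathway, which induces Klf4 in stem cells, was called by edgeR or DESeq2, and 2 had an unadjusted p under 0.05, with Lifr at 0.59 ± 0.24 (adjusted p = 0.198), Il6st at 0.49 ± 0.18 (adjusted p = 0.151) and Stat3 at -0.33 ± 0.17 (adjusted p = 0.322). Of the 8 tested naive pluripotency factors edgeR called 1, Sox2, and DESeq2 called 2, Sox2 and Nr5a2. Sox2 went from 0.531 and 0.156 CPM to 5.91 and 2.171 CPM (3.40 ± 0.65, adjusted p = 0.0198), passed the low-count filter through KO alone, as did Tbx3, and lost its call without KO replicate 1 (adjusted p = 0.0727). Tfcp2l1 gave 0.71 ± 0.30 and Sall4 -0.35 ± 0.14, neither past the test.

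In matKO morulae no KLF gene passed the test. None of the 8 tested members was called, against 0.132% of 9063 genes, of which 2 of 12 (16.7%) were higher, or 15 of 54 (27.8%) with DESeq2 size factors. One member, Klf6, had an unadjusted p under 0.05, as did 19.8% of all tested genes, and DESeq2 called Klf6 alone of the members. Klf5 stood at 299.0 and 321.3 CPM in CTR and at 278.5 and 315.3 CPM in matKO, with overlapping groups and a log2 fold change of -0.02 ± 0.11 (adjusted p = 0.936). Klf9 stood at 81.3 and 78.1 CPM in CTR and at 80.0 and 72.0 CPM in matKO (-0.03 ± 0.20). The values of Klf3 (0.12 ± 0.29), Klf4 (0.32 ± 0.28), Klf10 (0.41 ± 0.24) and Klf13 (-0.23 ± 0.21) were likewise within 2 SE of 0.

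Klf6 differed most among the members in morulae. It stood at 223.7 and 137.3 CPM in CTR and at 76.2 and 50.5 CPM in matKO. Each matKO library was below each CTR library, as for 29.5% of all tested genes, and the log2 fold change was -1.47 ± 0.29 (adjusted p = 0.0748). With DESeq2 the log2 fold change was -1.46 and the adjusted p was 0.00150. In the same libraries the 8 ExE markers, genes of the trophoblast, summed to 421.2 to 428.99 CPM in CTR and to 324.7 to 365.8 CPM in matKO morulae, 5 of the 6 tested had a negative log2 fold change with a median of -1.10, beside -0.019 over all tested genes, and none was called. Eomes, a trophoblast T-box factor, stood at 65.3 and 59.8 CPM in CTR and at 11.5 and 11.9 CPM in matKO (-2.37 ± 0.31, adjusted p = 0.0510). Cdx2, the trophectoderm homeobox factor, gave -0.89 ± 0.53 (adjusted p = 0.391), Krt8, an epithelial keratin, -0.89 ± 0.17 (adjusted p = 0.0743) and Gata3 -0.69 ± 0.23 (adjusted p = 0.178). Cdx2, Krt8 and Gata3 are on the list of 8 morula markers, of which 4 of the 7 tested were above 0, with a median of 0.11. On that list Tead4 and Tfap2c had ratios of pooled CPM, matKO over CTR, of 1.09 and 1.07. Hand1, a marker of differentiating trophoblast, had a ratio of 2.89, while Plac1 and Ascl2 of the same list had 0.35 and 0.90. The part of these markers in the Klf6 value was not tested. Klf17, the oocyte member, stood at 4.75 and 16.4 CPM in CTR and at 31.5 and 15.6 CPM in matKO (1.20 ± 0.65, adjusted p = 0.349). Its groups overlapped, and it passed the low-count filter through matKO alone. Klf2 had 2 counts in each CTR library and 7 and 3 in matKO, a ratio of pooled CPM of 3.09 with a 95% counting interval of 0.891 to 13.5.

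The other lists held no edgeR call in morulae. Of their 28 tested genes 10 had an unadjusted p under 0.05, beside 19.8% of all tested genes, and DESeq2 called 1 of them, Fos. Without matKO replicate 2, edgeR called Fos, Sp1 and Nr5a2 (adjusted p = 0.0103, 0.0323 and 0.0369). Only 2 of the 8 other KLF genes could be tested, Klf8 (-1.06 ± 0.35, adjusted p = 0.172) and Klf11 (0.73 ± 0.62), and Klf11 and Socs3 passed the low-count filter through matKO alone. Sp1, the founding SP factor, gave 0.85 ± 0.20 (adjusted p = 0.101). Socs3, a feedback inhibitor and target of STAT3, gave 2.82 ± 0.80 (adjusted p = 0.137) while Stat3 gave -0.71 ± 0.24 and Jak2 -1.12 ± 0.50. Sox2 gave -1.89 ± 0.62 (adjusted p = 0.166), opposite in sign to the oocyte, and Nr5a2 0.59 ± 0.13 (adjusted p = 0.0780). Among the cofactors Hdac1 gave 0.60 ± 0.19 (adjusted p = 0.162), and among immediate early genes Fos gave 1.02 ± 0.19 (adjusted p = 0.0743).

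Whether the effect of KO in oocytes differed from that of matKO in morulae was tested as an interaction over the 8 libraries. These are different genotypes, since in matKO the loss comes through the mother and the father was PWK. In matKO over CTR morulae Pcgf6 had a ratio of pooled CPM of 0.95, and Pcgf1 had 8 reads in matKO and 1 in CTR. Stage and genotype cannot be told apart in this difference. The effect was lower in morulae for 5 of the 9 members, where 2.24% of 14719 genes were called lower and 0.38% higher. The difference was -5.23 ± 0.62 on the log2 scale for Klf5 (adjusted p = 0.00120), -4.71 ± 0.69 for Klf3 (adjusted p = 0.00444) and -4.36 ± 0.49 for Klf9 (adjusted p = 8.98e-04). Klf4 gave -2.94 ± 0.59 (adjusted p = 0.0234) and Klf6 -2.54 ± 0.41 (adjusted p = 0.00587). Klf6 gave 1.06 ± 0.29 in oocytes and -1.47 ± 0.29 in morulae, neither past the test alone. Klf5 and Klf9 were also below 0 in morulae, but only at -0.02 ± 0.11 and -0.03 ± 0.20. Klf10 (-1.01 ± 0.36, adjusted p = 0.171), Klf13 (-0.33 ± 0.32), Klf17 (1.50 ± 0.54, adjusted p = 0.197) and Klf2 (0.20 ± 1.20) were not called. Klf4 lost its call in 6 of the 8 fits that left out 1 library, with adjusted p up to 0.138, and Klf6 lost its call without oocyte CTR replicate 1 (adjusted p = 0.0579).

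In ExE, matKO replicate 3 stood apart in its autosomal reads before any KLF gene was considered. Of its autosomal reads assigned to a parent 64.9% were paternal, against 48.5 to 48.8% in the other 3 matKO libraries, and values are therefore given with and without it. The matKO libraries also differed on the X chromosome, where the paternal share was 0.146%, 43.1%, 38.8% and 0.154% in replicates 1 to 4. In CTR it was 4.21% and 3.57%. The part of this difference in the KLF values was not tested. None of the 6 tested members was called, and none of the 8386 tested genes was (0%). Unadjusted p was under 0.05 for 1161 genes (13.8%) and for 2 members, Klf5 and Klf6, and DESeq2 called 214 genes and the same 2 members. Klf2, Klf4 and Klf17 were too low to test. Klf4 stood at 0.948 and 1.83 CPM in CTR and at 0.244 to 1.08 CPM in matKO.

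Klf5 stood at 13.3 and 5.96 CPM in CTR and at 54.8, 30.5, 24.6 and 27.1 CPM in matKO replicates 1 to 4. Every matKO library was above both CTR libraries, as for 12.5% of all tested genes. The log2 fold change was 1.81 ± 0.42 (adjusted p = 0.169) and, without matKO replicate 3, 1.94 ± 0.41 (adjusted p = 0.0660). DESeq2 gave 1.82 with an adjusted p of 0.00140. Klf6 lay on the other side, with 84.3, 156.1, 193.7 and 128.6 CPM in matKO beside 258.3 and 283.6 CPM in CTR. Every matKO library was below both CTR libraries, as for 11.3% of all tested genes, with the smallest drop in replicate 3. Its log2 fold change was -0.98 ± 0.28 (adjusted p = 0.223), -1.17 ± 0.23 without replicate 3 (adjusted p = 0.0623) and -0.98 with DESeq2 (adjusted p = 0.0152).

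The other testable members overlapped between the ExE groups. Klf13 stood at 11.1 and 12.8 CPM in CTR and at 3.67, 5.50, 11.6 and 8.24 CPM in matKO (-0.76 ± 0.41, adjusted p = 0.434, and -1.09 ± 0.40 without replicate 3). Klf9 stood at 10.7 and 4.81 CPM in CTR and at 16.9, 15.5, 9.45 and 13.0 CPM in matKO (0.81 ± 0.38, and 0.95 without replicate 3). Replicate 3 was the matKO library closest to CTR for Klf13 and the lowest matKO library for Klf9. Klf3 gave 0.71 ± 0.45 (0.96 without replicate 3), with replicate 3 at 5.94 CPM, below both CTR libraries, and the other matKO libraries above them at 13.0 to 21.8 CPM. Klf10 gave -0.50 ± 0.24 (-0.67 without replicate 3), with replicate 3 at 35.9 CPM between the CTR libraries and the other matKO libraries below them at 23.7 to 25.2 CPM.

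Tissue markers were read beside the KLF values in the ExE libraries. The ectoplacental cone is the differentiating trophoblast that borders the ExE, and its 6 markers added up to 1223.9 and 2512.7 CPM in CTR, against 84.8, 652.1, 1254.9 and 393.8 CPM in matKO. All 3 tested markers of this list had negative fold changes, the sum rested on Plac1, Ascl2 and Hand1, and Prl3d1 and Prl2c2 were at 0 in all 6 libraries. The order of the 4 matKO libraries was the same for Klf6 and for this sum, and Klf13 was likewise lowest in replicate 1 and highest in replicate 3. So was the sum of the 8 morula markers, at 576.2, 1099, 1645 and 1433.4 CPM in matKO replicates 1 to 4. How many of all genes share such an order was not counted, so it supports nothing by itself. The 8 ExE markers summed to 1009.7 and 1057.4 CPM in CTR and to 1115.8 to 1346.7 CPM in matKO, highest in replicate 1 and lowest in replicate 4. Klf5 was also highest in replicate 1, as was the epiblast sum below, but Klf5 was lowest in replicate 3. The ExE sum joins opposite changes, with 6 of the 7 tested markers above 0 and none called. Tfap2c had a ratio of pooled CPM, matKO over CTR, of 0.51, while Elf5 had 1.42, Eomes 3.98 and Esrrb 8.57. Epiblast markers summed to 152.6 and 138.0 CPM in CTR and to 152.8 to 280.6 CPM in matKO. That sum rested on Utf1, with 131.9 to 230.04 CPM over the 6 libraries, and Pou3f1, with 0.459 to 46.7 CPM, while Pou5f1, Otx2 and Tdgf1 were at 0 in all 6 libraries and Nanog and Fgf5 had no more than 1 count in any. Visceral endoderm markers summed to 2.84 and 1.38 CPM in CTR against 5.402 to 21.5 CPM in matKO, mostly from Amn, with 16 and 139 counts. Decidua and blood markers summed to 3.79 and 0.917 CPM in CTR and to 22.5, 3.75, 0.540 and 0.883 CPM in matKO. Of that list Prl8a2 had 75 counts in matKO, all in replicate 1, and 0 in CTR. Immediate early genes summed to 336.8 and 386.3 against 183.1 to 259.8 CPM. The part of tissue makeup and of early response in the KLF values was not tested.

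**Figure D3:**
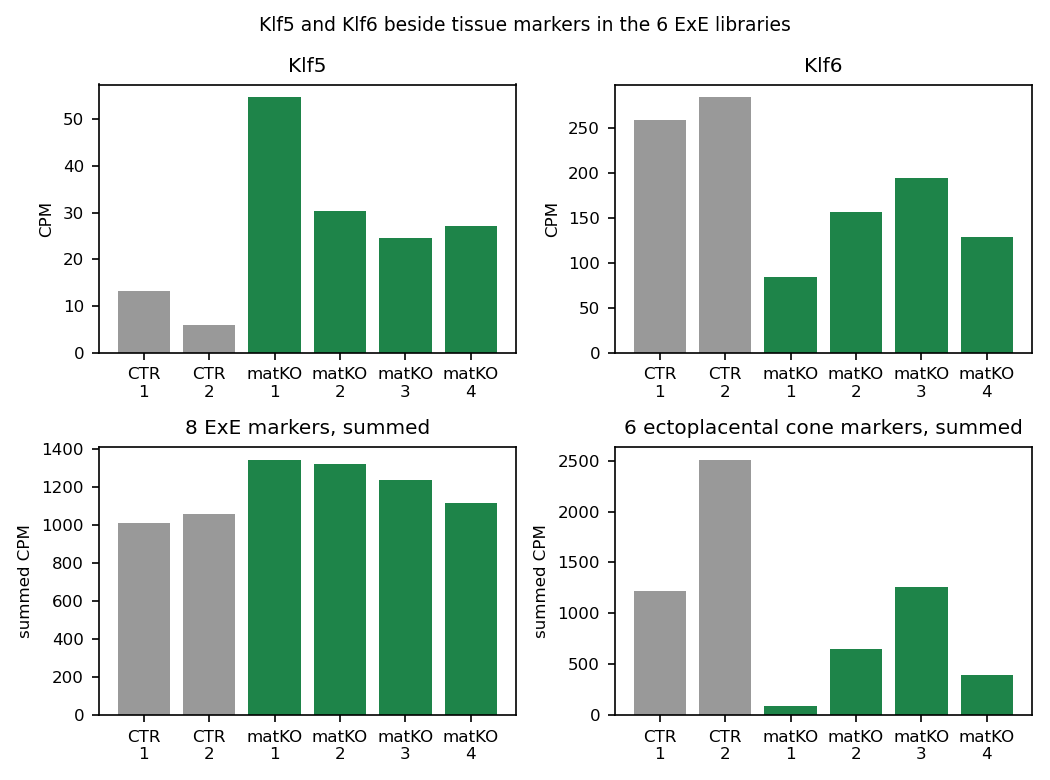
Bars give the level in each of the 6 ExE libraries in CPM for Klf5 and Klf6 (top) and the summed CPM of ExE and ectoplacental cone markers (bottom), with CTR in grey and matKO in green. Klf5 is above both CTR bars in all 4 matKO libraries, and Klf6 and the ectoplacental cone sum are both lowest in matKO replicate 1 and highest among matKO in replicate 3.

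None of the genes on the other lists was called by edgeR in ExE. Of their 34 tested genes 8 had an unadjusted p under 0.05, beside 13.8% of all tested genes, and DESeq2 called Ctbp2, Fos and Egr1. Among the pluripotency factors, Sox2 stood at 2.13 and 0 CPM in CTR and 23.2, 14.99, 3.24 and 10.01 CPM in matKO (3.56 ± 1.10, adjusted p = 0.252), and Esrrb at 30.8 and 2.06 CPM in CTR and 230.8, 182.9, 51.3 and 71.2 CPM in matKO (3.03 ± 1.27, adjusted p = 0.391). Both genes maintain trophoblast stem cells, both were lowest among matKO in replicate 3, and both passed the low-count filter through matKO alone. Leaving out 1 library gave 2.60 to 8.65 for Sox2 and 2.14 to 5.93 for Esrrb, the highest without CTR replicate 1 and the lowest without CTR replicate 2, and neither was then called. Ctbp2, the partner of Klf3, gave 1.40 ± 0.36 (adjusted p = 0.201), Ep300 0.85 ± 0.30 (adjusted p = 0.276), Klf14, which also passed that filter through matKO alone, 1.40 ± 0.86, Sp2 -0.60 ± 0.25 (adjusted p = 0.335) and Jak2 -0.72 ± 0.28 (adjusted p = 0.305). Of the immediate early genes, Fos gave -1.36 ± 0.24 (adjusted p = 0.117) and Egr1 -3.66 ± 0.79 (adjusted p = 0.169). The 9 tested genes of that list ran from -3.66 to 1.67 with a median of -0.18, and 2 were above 0. Fos had the opposite sign in morulae. The effect of matKO differed between ExE and morula for 0 of 8 members and 0.34% of 11182 genes, with the smallest p for Klf5 (difference 1.78 ± 0.48, adjusted p = 0.159). Klf5, Klf4 and Klf10 had an unadjusted p under 0.05, as did 13.2% of all genes in that test.

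Because the father was PWK, reads could be split by parent, and the maternal share is the percent of these reads assigned to the mother. Klf5 had reads of both alleles in CTR morulae, with maternal shares of 52.4% of 504 reads (exact Clopper-Pearson 95% interval 47.9 to 56.8%) and 51.8% of 510 reads (47.3 to 56.2%). In matKO morulae the shares were 51.1% and 53.6%. Klf9 leaned towards the maternal allele, with 70.8% (62.4 to 78.3%) and 65.3% (56.3 to 73.6%) in CTR morulae and 59.6% and 63.9% in matKO. Klf13 gave 59.8% and 59.4% in CTR morulae and 56.3% and 52.8% in matKO. Such shares include any bias in read assignment between the strains. In morulae the maternal reads also include any RNA left from the oocyte, which cannot be told apart here from RNA made by the embryo.

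Klf6, the member that differed most in morulae, was 56.0% and 62.4% maternal in CTR and 57.6% (47.2 to 67.5%) and 77.9% (66.2 to 87.1%) in matKO. The matKO libraries thus differed widely from each other. Klf17 had few reads, with maternal shares of 37.5% of 8 reads and 42.3% of 26 reads in CTR and 24.4% of 41 reads and 23.8% of 21 reads in matKO. The 10 reads of Klf2 in matKO morulae were all paternal, 7 in replicate 1 and 3 in replicate 2, and in CTR 1 of 2 reads was maternal in each library. With 0 of 7 reads the exact interval still reaches 40.96% maternal.

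The test of a shift in allelic share called 0 of 8 members in morulae, against 0.0393% of 7637 genes, and 0 of 6 in ExE, against 0.0729% of 6857 genes. On simulated reads, for genes with many reads only, the same test recovered 100% of 4-fold shifts in morulae and 61% in ExE. Members with fewer reads were not covered by that check. No member had an unadjusted p under 0.05 in either stage, beside 8.2% of genes in morulae and 6.34% in ExE. A value above 0 is a shift to the paternal side. Klf17 gave 1.07 ± 0.72 (adjusted p = 0.793) and Klf4 0.81 ± 0.47 (adjusted p = 0.760) in morulae, and the values of the other members lay between -0.51 for Klf6 and 0.37 for Klf9. In ExE, Klf6 was 50.9% and 51.1% maternal in CTR and 53.3%, 51.7%, 31.8% and 49.2% in matKO replicates 1 to 4. Klf5 was 48.2% and 50% maternal in CTR and 42.9%, 44.3%, 27.5% and 54.3% in matKO. Replicate 3 was the lowest library for both genes, as it was for Klf10 (33.8%), and paternal reads were in excess over all its autosomes.

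**Figure D4:**
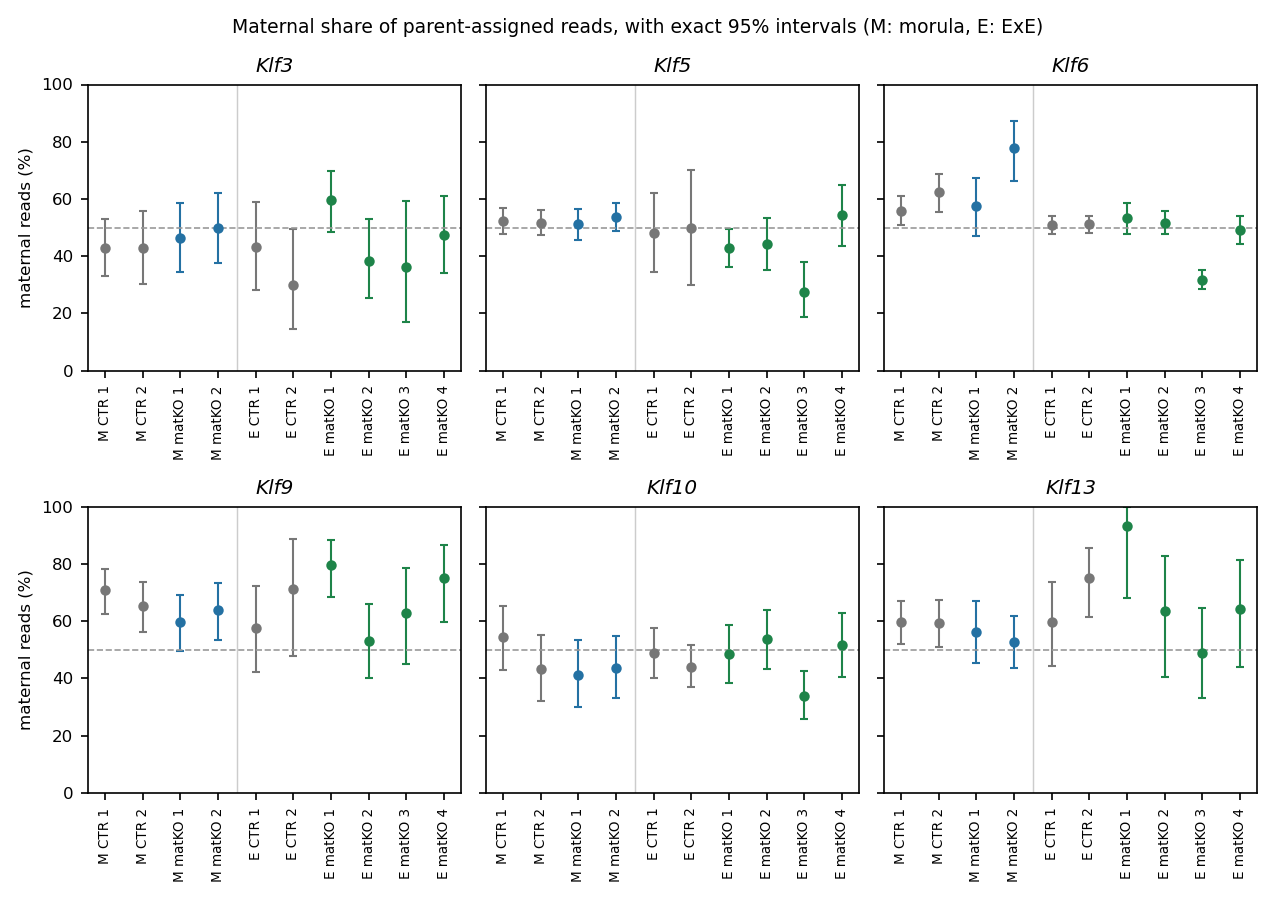
Maternal share in percent of the parent-assigned reads of 6 KLF genes on the vertical axis, for each morula and ExE library on the horizontal axis, with exact 95% intervals and a dashed line at equal shares. Klf5 lies near the line in morulae, Klf9 above it, and in ExE the shares of Klf5, Klf6 and Klf10 are lowest in matKO replicate 3.

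The genes whose levels followed a member most closely were found by Pearson's r of log2(CPM + 1) over the 14 libraries, which share stage and scale, so r is a description with no test. Klf5 was most like Hmga2 (r = 0.994), Harbi1 (r = 0.993) and Smarcad1 (r = 0.991). Hmga2, a chromatin protein of embryonic cells, stood at a mean of 15.5 CPM in CTR oocytes, 348.6 in CTR morulae and 54.0 in CTR ExE. Klf17 was most like Gm5475 (r = 0.998), Lmo7 (r = 0.997) and Khdc1b (r = 0.996), each high in oocytes and at 0 CPM in ExE. Klf2, low throughout, was most like Zfp617 (r = 0.943), Zscan10 (r = 0.931) and Cux2 (r = 0.928). Of these, Zscan10, a zinc finger factor of pluripotent cells, had means of 7.42 CPM in CTR and 20.5 CPM in KO oocytes, and 12.0 CPM in CTR and 24.7 CPM in matKO morulae.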

How the data were processed

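RNA-seq libraries were made with SMART-Seq v4 and Nextera XT, per the labels' protocols, a chemistry that does not mark strand. The deposited values are raw counts, per the file headers, with 1 column per oocyte library and a maternal and a paternal column per embryo library, which were summed. The submitters' processing notes name STAR 2.7.3 and RSEM 1.3.1 among other tools, with builds mm10 and dm6; the counting rule and the parent assignment are not stated there, so counts of KLF and SP paralogs are uncertain where reads match several genes. Of 58 samples 18 are RNA-seq, and 14 libraries were used; reciprocal-cross morulae and 40 CUT&RUN samples were not analysed here. Oocyte libraries held 19805264 to 26364085 counts, morula libraries 1299715 to 1685510 and ExE libraries 3397585 to 4361832. A floor of 3 counts is 0.114 to 0.151, 1.78 to 2.31 and 0.688 to 0.883 CPM. CPM is counts over the library total; intervals are 95% exact and cover counting error only, since reads carry no molecular identifiers.

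Tests used edgeR 4.0.16 in R 4.3.3 over all genes (TMM, filterByExpr, robust quasi-likelihood, Benjamini-Hochberg adjusted p under 0.05), within a stage for KO effects, over both stages for interactions and over all CTR libraries for stages. The allelic test had library, allele and allele-by-genotype terms, offsets of autosomal totals and a minimum mean of 20 reads, without the X chromosome in ExE. The SE printed is the absolute log2 fold change over the square root of the F statistic of its test. It is not a direct estimate, and for a gene with few reads in a group the counting interval can be far wider. Alternatives were DESeq2 1.42.0, other scaling, no filter, a replicate block, a shared spread, other allelic settings and leaving out each library. On simulated counts for the oocyte comparison (13453 genes) 45% of 2-fold and 99% of 4-fold changes were recovered, with 15 false calls of 159. For morulae (9064 genes) these were 71% and 100% with 8 of 179, and for ExE (8279 genes) 64% and 99% with 3 of 166. The difference between oocyte and morula (13710 genes) gave 3% and 66% with 2 of 71. Changes were placed only in well-counted genes, and all genes were given the same spread. These rates thus need not hold for members with few reads or a wide spread, and a value not called is no evidence of no change.

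The members and lists were chosen with earlier results of these data known. The text names all 9 members, up to 3 genes of smallest p from each of 6 lists per KO comparison, Pcgf1, Pcgf6, and the 3 genes most like Klf2, Klf5 and Klf17; marker genes, other list genes and those that passed the filter through KO alone were named after their values were seen.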

Additional observations from a re-analysis of the deposited data

Results flagged for a closer look

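The effect of matKO in morulae was lower than that of KO in oocytes by the interaction test for 5 KLF genes. The log2 differences were -4.71 for Klf3, -2.94 for Klf4, -5.23 for Klf5, -2.54 for Klf6 and -4.36 for Klf9.

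In ExE, 14 sets of 4 matKO values were examined for a library far from the others, and chance flags about 1 in 20 such sets. Replicate 3 was the library that stood out in all 3 cases found. Its autosomal paternal share was 64.9%, against 48.5 to 48.8% in the others. Klf10 stood there at 35.9 CPM, against 23.7 to 25.2 CPM. Klf17 stood there at 0.270 CPM, which is 1 count, against 0 in the others. A set with reads in only 1 library is always flagged, so the rate of 1 in 20 does not apply to Klf17 and its flag carries no weight.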

How the results depend on the processing

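Of 669 alternative values for the KLF genes, 621 kept direction and side of the threshold, 13 lost the call, 20 gained it and 15 changed sign. Without the low-count filter 1630 genes were called in oocytes, 489 in morulae and 112 in ExE, and 791 and 238 for the oocyte-morula and morula-ExE differences; 1 KLF gene was then called in morulae (Klf6) and 1 in ExE (Klf5), and in oocytes Klf4 was lost and Klf6 gained. DESeq2 called 208 genes and 1 KLF gene in morulae, and 214 genes and 2 KLF genes in ExE. With DESeq2 size factors 54 genes were called in morulae, and with a spread shared over all libraries 166 genes and 1 KLF gene in morulae and 35 genes and 1 KLF gene in ExE. With library totals alone, Klf10 in CTR ExE over morula was -0.35. The cause of these changes was not tested.

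Same-numbered libraries deviated together with r of 0.29 in oocytes, 0.18 in morulae and 0.26 in ExE, over 2 pairs each, and the numbers were not taken as pairs. A replicate block gave 2021 called genes in oocytes, 310 in morulae, 923 in ExE and 259 for the morula-ExE difference. It added Klf2 and Klf6 in oocytes, 1 KLF gene in morulae (Klf6), 3 in ExE (Klf5, Klf6, Klf13) and 1 for that difference (Klf5), and gave 0.55 for Klf7 and -0.00700 for Klf16 in ExE. In ExE, replicates 3 and 4 existed only in matKO, so a block left them without weight in the effect of matKO. The block values for ExE and for the morula-ExE difference thus rest on ExE replicates 1 and 2 alone, not on the same libraries as the main fit.

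Leaving out 1 library at a time gave 767 to 2029 called genes and 3 to 6 KLF genes in oocytes, 7 to 524 and 0 to 1 in morulae, 0 to 6 genes in ExE, 124 to 558 genes and 3 to 5 KLF genes for the oocyte-morula difference, and 1 to 74 genes for the morula-ExE difference. The allelic tests called 0 to 3 genes in morulae and 4 to 14 in ExE. In oocytes the lowest KLF count came without KO replicate 1 and the highest count of genes without KO replicate 2; Klf2 was called without CTR replicate 1. In morulae Klf6 was called without CTR replicate 2 or matKO replicate 1. Values that changed sign in these fits were, in oocytes, Klf13 (-0.094 to 0.25), Sp2 (-0.16 to 0.33) and Sp3 (-0.59 to 0.035); in morulae, Klf3 (-0.14 to 0.45), Klf5 (-0.11 to 0.061), Klf9 (-0.11 to 0.051), Dusp1 (-0.95 to 0.31) and Pcgf6 (-0.17 to 0.13); in ExE, Klf7 (-0.66 to 0.18) and Klf16 (-0.47 to 0.88); in the differences, Klf2 (-0.55 to 0.70) and Klf17 (-3.27 to 0.16); and in the allelic tests, Klf5 (-0.15 to 0.031) and Klf6 (-1.35 to 0.053) in morulae and Klf6 (-0.022 to 0.085), Klf9 (-1.01 to 0.011) and Klf13 (-0.60 to 0.42) in ExE. Groups of 2 libraries, unknown pooling and parent-assigned reads limit all embryo values, and the depth of morula libraries left Klf2 untested.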
